A study of Capra hircus with 90 samples.

Results

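The comparison asks what 7 d of breathing 6% CO2 did to transcript levels that the nucleus of the solitary tract (NTS), the ventral respiratory column (VRC) and the retrotrapezoid nucleus (RTN) of the goat brainstem had in common. Each goat gave 1 library per site. The log2 of its library-size-normalised counts (CPM) was averaged over the 3 sites, so that 36 of the 90 libraries became 12 of the 30 goats, 6 that had breathed CO2 and 6 kept in room air. The libraries were chosen by their labels alone. The goats of both groups were adult (at least 2 years), outbred and female. They were housed for 7 d either with 6% inspired CO2 or in room air, and their RNA was extracted and sequenced together in the second of 2 batches. Goats of the other exposures, 3 h and 24 h of CO2 and 24 h of room air, were in the first batch and enter only where stated.

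Extra CO2 in the inspired gas raises blood CO2 and lowers pH, and ventilation increases. The RTN, a group of parafacial neurons, senses CO2 and protons and drives breathing. The VRC holds the preBötzinger complex, which generates the inspiratory rhythm, and premotor and motor neurons of the airways. The NTS receives carotid chemoreceptor, baroreceptor and lung afferents. The punches spanned 0 to 2 mm rostral to the obex for the NTS, 2 to 4 mm for the VRC and 8 to 10 mm for the RTN. They are bulk tissue, so fewer cells of a type and less RNA per cell cannot be told apart.

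Summed over its 3 libraries, a CO2 goat had 80.7 ± 6.35 M counts and a room-air goat 78.5 ± 4.2 M (SD, n = 6 each; exact permutation test, two-sided, p = 0.483, smallest possible 0.0022). Single libraries held 20.3 to 36.8 M. Room-air goat 3 stood apart, at 43.5 on the first principal component, and CO2 goats 1 and 3 followed at 24.8 and 19.2. Only genes that the authors had listed as changed by CO2 at some site and time carry a symbol here, which gives 238 symbols. A named gene was therefore selected on these same libraries or on those of the first batch. Symbols of the usual site markers and of astrocyte and meningeal markers were not among them, so the site labels were not checked against markers.

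**Figure D1:**
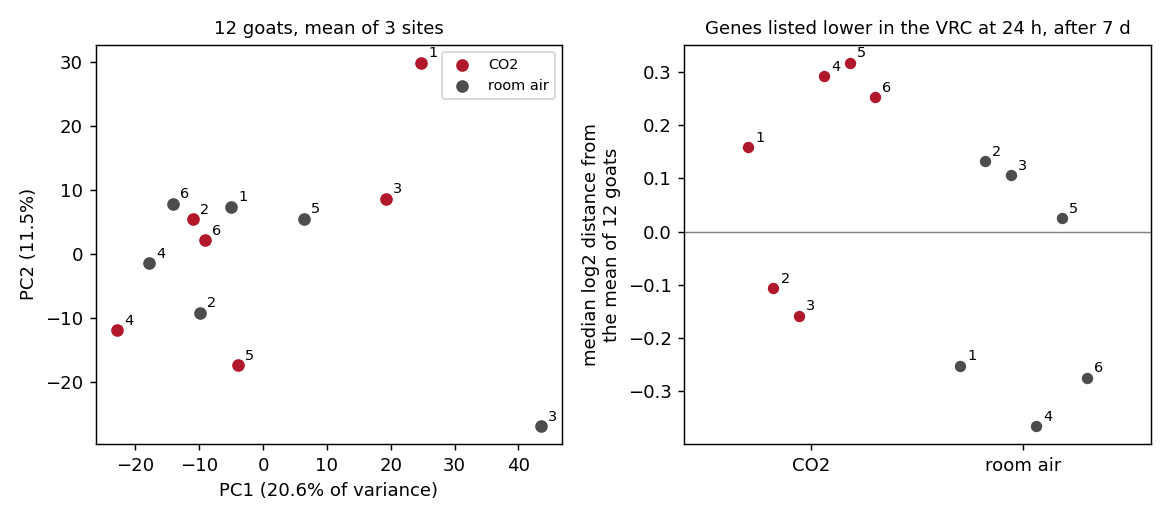
Left, the 12 goats on the first 2 principal components of their mean log2 CPM over 3 sites, with replicate numbers; CO2 and room-air goats are interspersed, and room-air goat 3 lies farthest out at 43.5. Right, for each goat, the median log2 distance from the mean of the 12 goats over 94 genes that the authors' table lists as lower in the VRC after 24 h of CO2 in other goats; CO2 goats run from -0.158 to 0.317 and room-air goats from -0.365 to 0.132.

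After 7 d no gene passed the test for a CO2 minus room-air difference in the level shared by the sites. Of 16050 genes, 0 passed an adjusted p of 0.05 (0%; limma with Benjamini-Hochberg adjustment, lowest adjusted p = 0.999). An unadjusted p under 0.05 was reached by 570 genes (3.55%), 273 higher (1.7%) and 297 lower (1.85%) after CO2. Goats of the 2 groups did not overlap for 27 genes (0.168%), 13 higher (0.081%) and 14 lower (0.0872%). Of genes with a symbol these were FSD2, chi-mir-29b and ADCK5. DESeq2 on counts summed per goat called 10 genes, and limma voom over the 36 libraries with the goat as a random effect called 9. The 2 sets had 2 genes in common.

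The fit bounded how large a shared change could be. The median standard error (SE) of a log2 difference was 0.116, and the middle of the distribution, from its 5th to its 95th percentile, ran from -0.256 to 0.276. The 95% confidence interval lay within a log2 difference of 1 in either direction for 15054 genes (93.8%) and within 0.5 for 11497 (71.6%). Among the 14109 genes of at least 1 CPM these shares were 97.3% and 80.9%. A difference beyond 1 was estimated for 51 genes. Over the 14931 genes tested in all fits, the median SE was 0.11 for the pooled value, against 0.152 in the NTS, 0.145 in the VRC and 0.141 in the RTN. The pooled SE came from limma on log2 CPM and the site SEs from edgeR on counts, so averaging and method cannot be told apart. Sites of 1 goat resembled each other, and the part of this in the size of the gap was not tested. The goat held a median of 29.1% of a gene's variance after site and exposure were removed (quartiles 10.5% and 49%). Among libraries of the other sites in the same exposure, 35 of 36 libraries matched one of their own goat best.

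The genes named here were those with a symbol and the lowest p in each direction; none passed the adjusted threshold (limma, adjusted p = 0.999 for each), so their values are a description. HS6ST1, a sulfotransferase that adds 6-O-sulfate to heparan sulfate chains, had positive values at all 3 sites. Its goat values ran from 2.30 to 2.88 mean log2 CPM in CO2 goats (median 2.49) and from 1.83 to 2.39 in room-air goats (median 2.01). Only CO2 goat 2 lay below the highest room-air goat, number 5. The pooled log2 difference was 0.52 (95% interval 0.23 to 0.81), with 0.66 in the NTS, 0.55 in the VRC and 0.48 in the RTN. DESeq2 on summed counts called HS6ST1 (adjusted p = 0.0338).

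FSD2, a protein with fibronectin type III and SPRY domains, ranged from 0.70 to 1.5 mean log2 CPM in CO2 goats (median 1.06) and from 0.30 to 0.65 in room-air goats (median 0.53). All 6 CO2 goats lay above all 6 room-air goats. The pooled difference of 0.59 (interval 0.27 to 0.91) had site estimates of 1.21 in the NTS, 0.33 in the VRC and 0.35 in the RTN. DLL3, a Notch ligand that inhibits signalling, ranged from 2.39 to 2.86 in CO2 goats (median 2.63) and from 1.95 to 2.42 in room-air goats (median 2.17). Its pooled difference was 0.40 (interval 0.15 to 0.65), with 0.92, 0.12 and 0.16 in the NTS, VRC and RTN. FSD2, DLL3 and SAP30 stand in the authors' table for the NTS at 7 d, whose libraries are also part of the means.

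RHOU ranged from 3.72 to 4.33 mean log2 CPM in CO2 goats (median 4.17) and from 3.54 to 3.99 in room-air goats (median 3.73). CO2 goat 3 was within the room-air range and the other 5 were above it. The log2 difference was 0.39 pooled, 0.47 in the NTS, 0.29 in the VRC and 0.46 in the RTN. EIF3B, a subunit of the translation initiation factor eIF3, differed by 0.38 (interval 0.14 to 0.63), and ZDHHC2, a palmitoyltransferase, by 0.44 (0.16 to 0.72). ARSG, a lysosomal sulfatase, differed by 0.39, NR1D2, the clock repressor REV-ERB beta, by 0.39, LRP8, a receptor for reelin and apolipoprotein E, by 0.35, and SAP30, of the SIN3 histone deacetylase complex, by 0.53. Without the NTS, the mean of the VRC and RTN differed by 0.29 for EIF3B, 0.38 for ZDHHC2 and 0.25 for ARSG. It differed by 0.31 for NR1D2, 0.16 for LRP8 and 0.20 for SAP30. In EIF3B, ZDHHC2, NR1D2 and LRP8 the same goats were at the ends. Goats 4, 5 and 6 held the 3 highest CO2 values in all 4, and CO2 goat 3 the lowest. HS6ST1, RHOU, EIF3B, ZDHHC2, ARSG, NR1D2 and LRP8 are on the authors' list of genes lower in the VRC at 24 h. The genes of that list varied together by goat, as described below, so they are not separate results.

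Among genes lower after CO2, ADCK5, a member of the aarF-domain kinase family, ranged from 4.83 to 5.00 mean log2 CPM in CO2 goats (median 4.91) and from 5.05 to 5.27 in room-air goats (median 5.16). The groups did not overlap. The pooled difference was -0.25 (interval -0.37 to -0.12), with -0.58 in the NTS, -0.17 in the VRC and 0.01 in the RTN. DESeq2 on summed counts called ADCK5 (adjusted p = 0.0284). NUMA1, which organises the mitotic spindle poles and nuclear matrix, ranged from 6.40 to 6.65 in CO2 goats (median 6.49) and from 6.62 to 6.85 in room-air goats (median 6.75). Its pooled difference was -0.24 (interval -0.37 to -0.11), with -0.57 in the NTS, -0.08 in the VRC and -0.10 in the RTN.

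MAN2B1, the lysosomal alpha-mannosidase, ranged from 6.05 to 6.53 mean log2 CPM in CO2 goats (median 6.15) and from 6.25 to 6.71 in room-air goats (median 6.50). CO2 goat 1 was the highest of its group at 6.53, and the other 5 lay between 6.05 and 6.15, below every room-air goat. The pooled difference was -0.30 (interval -0.49 to -0.11) and -0.06 for the mean of the VRC and RTN alone. EFCAB14, an EF-hand protein, differed by -0.27, CHST15, a sulfotransferase of chondroitin sulfate, by -0.31, TMEM102 by -0.39, ROPN1L, a protein of sperm and cilia, by -0.21, and TNFAIP1, an adaptor of cullin-3 ubiquitin ligases, by -0.15. DHX30, a mitochondrial RNA helicase, differed by -0.19 and TRAPPC12, of the TRAPP vesicle tethering complex, by -0.23. Of these 10 genes, ADCK5, NUMA1, MAN2B1, DHX30 and TRAPPC12 are in the authors' NTS table at 7 d. EFCAB14 and TNFAIP1 are listed as higher in the NTS at 24 h, and TMEM102 and ROPN1L as lower there. CHST15 is listed as higher in the VRC at 24 h. In CHST15 the 3 site values were alike, at -0.29, -0.27 and -0.31 in the NTS, VRC and RTN.

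**Figure D2:**
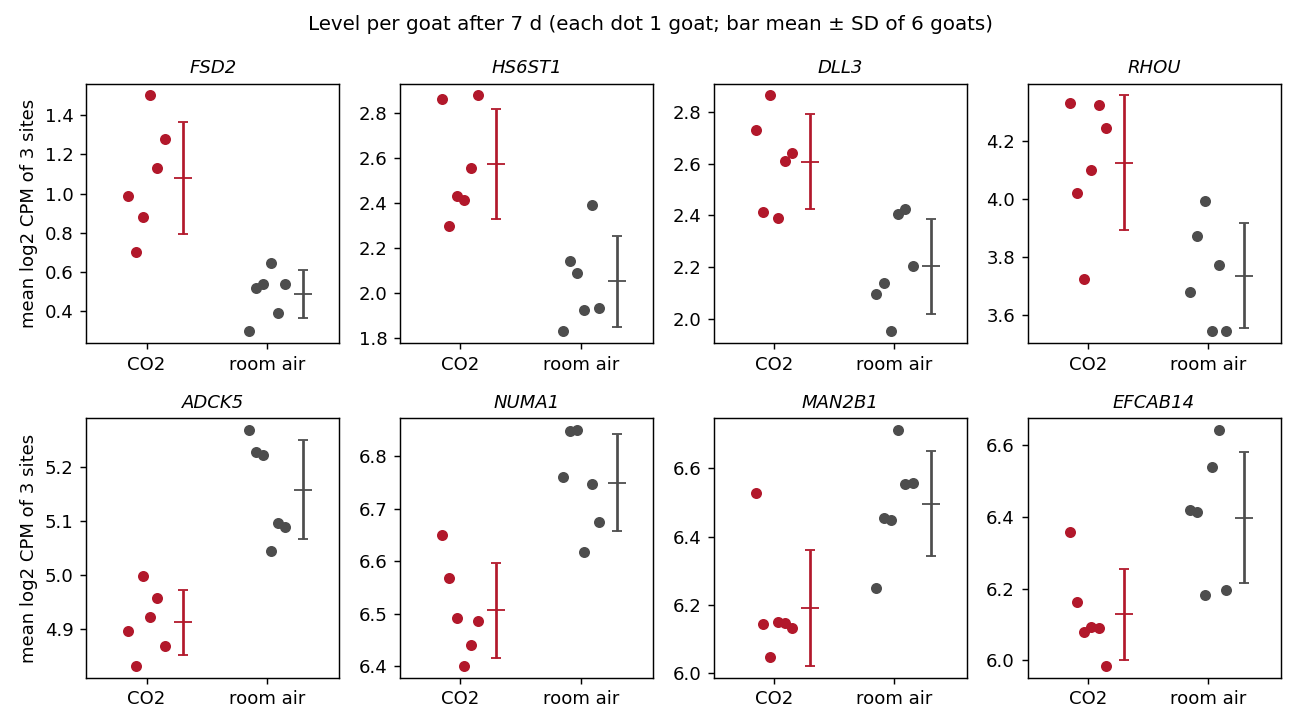
Mean log2 CPM over 3 sites in each goat (dots, CO2 left and room air right) for 8 named genes, with the mean ± SD of 6 goats beside them. FSD2 and ADCK5 do not overlap between the groups, and in MAN2B1 CO2 goat 1 at 6.53 lies apart from the other 5.

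Genes known only by identifier had the lowest p-values. ENSCHIG00000014050 ranged from 2.60 to 3.27 mean log2 CPM in CO2 goats (median 2.99) and from 2.14 to 2.52 in room-air goats (median 2.45), a difference of 0.57 (interval 0.31 to 0.84; limma, adjusted p = 0.999). ENSCHIG00000011870 differed by 0.71 and ENSCHIG00000012743 by -0.54 with values of the same sign at every site: 0.75, 0.73 and 0.74 for the one in the NTS, VRC and RTN, and -0.56, -0.66 and -0.42 for the other. These were the 2 genes that both DESeq2 and voom called (adjusted p = 0.0258 and 0.0347 for each). ENSCHIG00000011870 ranged from 4.48 to 5.58 in CO2 goats and from 4.16 to 4.59 in room-air goats, so that only CO2 goat 5 overlapped room air. ENSCHIG00000012743 ranged from 3.74 to 4.31 in CO2 goats and from 4.22 to 4.90 in room-air goats. ENSCHIG00000017978 differed by -0.26. DESeq2 on summed counts also called ENSCHIG00000014050 (adjusted p = 0.0258) and ENSCHIG00000017978 (adjusted p = 0.0233).

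A pair of transcripts of the authors' NTS table had low counts at all sites, and their differences rest on few reads. The locus chi-mir-29b, the host of a microRNA precursor and no measure of the mature microRNA, ranged from -1.15 to -0.73 mean log2 CPM in CO2 goats (median -0.81) and from -1.88 to -1.16 in room-air goats (median -1.59). The groups did not overlap, and the pooled difference was 0.73 (interval 0.33 to 1.13). ENSCHIG00000002189 ranged from -3.52 to -2.10 in CO2 goats and from -2.83 to 0.48 in room-air goats. Room-air goats 1, 3, 4 and 5 were between -0.48 and 0.48, while room-air goat 2 lay at -2.83 among the CO2 values and room-air goat 6 at -2.02, just above the highest CO2 goat. DESeq2 on summed counts called it (log2 difference -3.23, adjusted p = 0.0151). In goats 1 and 2 of room air it had 1.05 and 0.0401 CPM in the NTS, 1.10 and 0.0297 CPM in the VRC, and 2.01 and 0.153 CPM in the RTN.

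The sites taken alone gave little more. In the VRC 0 of 15179 genes passed (0%; edgeR quasi-likelihood test, lowest adjusted p = 0.747) and 996 had an unadjusted p under 0.05 (6.56%). In the RTN 0 of 15326 passed (0%; lowest adjusted p = 0.999) and 499 had an unadjusted p under 0.05 (3.26%). In the NTS the single call of 15311 (0.00653%) was MAN2B1, with 1228 genes at an unadjusted p under 0.05 (8.02%). By DESeq2, 75 genes passed in the NTS and 2 in each of the VRC and RTN. Of the genes tested in both the VRC and RTN, 78 had an unadjusted p under 0.05 in each, which is 7.91% of those in the VRC and 16% of those in the RTN, and 76 of the 78 had the same sign. The sites come from the same goats, so this overlap is not independent. Averaging the VRC and RTN without the NTS, 0 of 15724 genes passed (lowest adjusted p = 0.985) and 719 had an unadjusted p under 0.05.

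**Figure D3:**
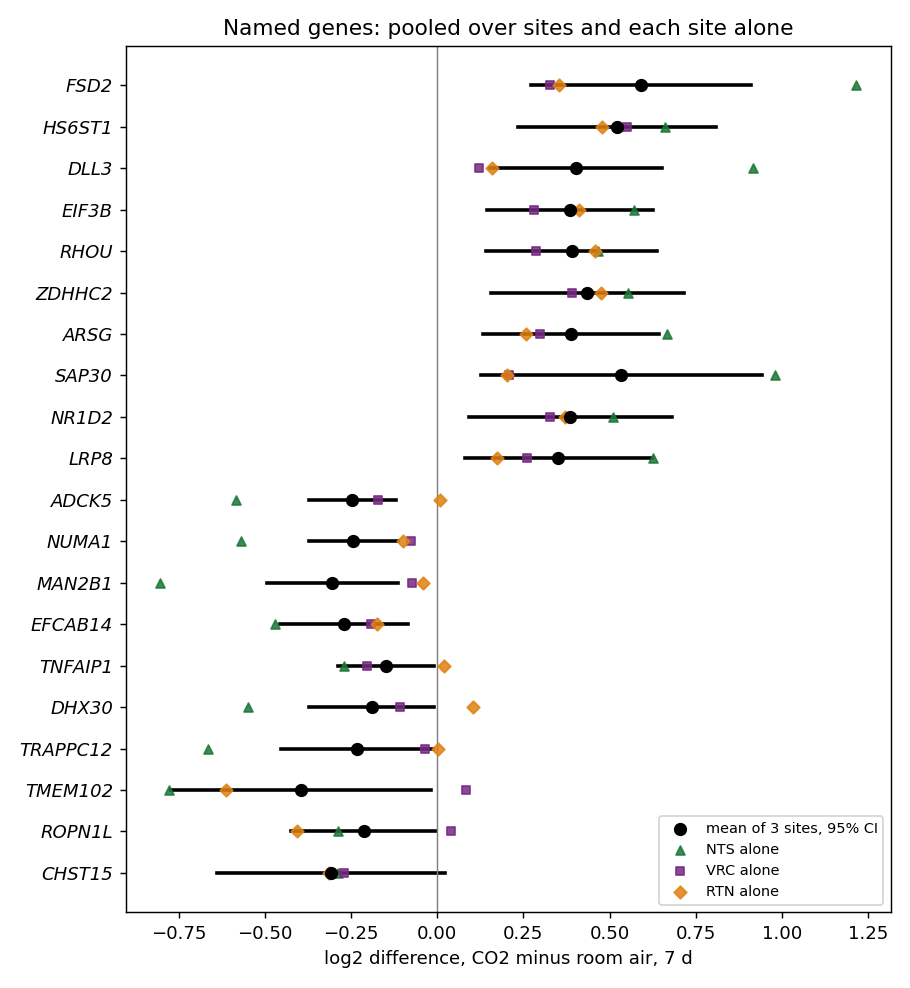
Log2 differences, CO2 minus room air, of the 20 named genes: the mean over sites with its 95% confidence interval (black) and the estimate of each site alone (coloured symbols). HS6ST1, RHOU, ZDHHC2, NR1D2 and CHST15 have like values at the 3 sites, while DLL3, ADCK5, MAN2B1 and TRAPPC12 have their largest estimate in the NTS, whose libraries chose them.

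Among the genes of lowest p in the VRC, DDIAS had a low level and PRPH an uneven one. DDIAS, an anti-apoptotic gene of the DNA damage response, had 0.458 to 1.02 CPM after CO2 (median 0.631) and 0.181 to 0.374 CPM in room air (median 0.317), without overlap. Its log2 difference was 1.16 (SE 0.32; edgeR, adjusted p = 0.747), against -0.47 in the RTN. PRPH, peripherin, an intermediate filament of motor and peripheral neurons, differed by 2.03 (SE 0.66). CO2 libraries 4 and 5 of the VRC had 49.6 and 71.1 CPM of PRPH, and the other 10 libraries of the VRC between 4.42 and 7.54 CPM. In the RTN punches PRPH spread from 65.7 to 748 CPM after CO2 and from 25.1 to 722 CPM in room air. RIPPLY2, a transcriptional corepressor of somite formation, differed by 0.36, and HS6ST1 and RHOU by 0.55 and 0.29.

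In the VRC BAX, which permeabilises mitochondria in apoptosis, had 13.2 to 20.3 CPM after CO2 (median 16.3) and 16.3 to 29.4 CPM in room air (median 22.2). The difference was -0.44 (SE 0.15; edgeR, adjusted p = 0.747). In the NTS the same gene had 21.4 to 26.2 CPM after CO2 (median 23.2) and 9.96 to 21.6 CPM in room air (median 14.9), a difference of 0.56. The RTN lay between, at -0.04. HYAL2, a hyaluronidase, differed by -0.36 in the VRC, ACER2, a ceramidase, by -0.37, DTX1, a ubiquitin ligase of the Notch pathway, by -0.46, and GSN, the actin-severing gelsolin, by -0.27.

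In the RTN, PLOD1, the lysyl hydroxylase of collagen, had 65.0 to 94.3 CPM after CO2 (median 75.8) and 54.0 to 74.5 CPM in room air (median 59.7). The difference was 0.34 (SE 0.10; edgeR, adjusted p = 0.999), and the groups overlapped. CAV1, caveolin, differed by 0.26 and had 137.4 to 182.1 CPM after CO2 and 112.2 to 137.1 CPM in room air, next to each other without overlap. MYLK, the myosin light chain kinase of smooth muscle, differed by 0.26, STK11, the kinase LKB1, by 0.40 and RHOU by 0.46. ROPN1L had 13.2 to 17.6 CPM after CO2 and 17.5 to 26.2 CPM in room air, a difference of -0.41 (SE 0.12). TMEM102 differed by -0.61, HBQ1, a globin, by -0.40 and UQCC6, an assembly factor of respiratory complex III, by -0.33. PLOD1, CAV1 and MYLK are on the authors' list of genes higher in the NTS at 24 h. ROPN1L, TMEM102, HBQ1 and UQCC6 are listed as lower there, and STK11 and RHOU as lower in the VRC at 24 h. In the RTN at 7 d, 21 of 22, 9 of 151 and 82 of 94 genes of these lists were positive. Their members are therefore not separate results. OVN differed by -1.33, and by -0.51 in the fit without room-air goat 6. That goat had 6.67 CPM of OVN in the RTN, 8.82 CPM in the VRC and 9.48 CPM in the NTS. Libraries of other room-air goats had at most 2.60 CPM.

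The authors' table for the NTS at 7 d lists 22 genes, 14 higher and 8 lower, and their VRC and RTN tables at 7 d list 0. The NTS libraries chose these 22, so only the VRC and RTN bear on whether the genes moved elsewhere. Of the 14 listed as higher, 12 were tested in the VRC, 4 positive and 8 negative with a median log2 difference of -0.0472, and 11 in the RTN, 8 positive and 3 negative with a median of 0.0787. Of the 8 listed as lower, 6 were tested in each site. In the VRC all 6 were negative (median -0.075), and in the RTN 4 were positive and 2 negative (median 0.00531). The medians over all genes were 0.00261 in the VRC and -0.00361 in the RTN.

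MAN2B1 had 59.6 to 83.6 CPM in the NTS after CO2 (median 64.3) and 94.8 to 140.5 CPM in room air (median 116.6), without overlap, and fell by 0.80 on the log2 scale (SE 0.11; edgeR, adjusted p = 0.0389). In the VRC it had 66.2 to 103.5 CPM after CO2 and 64.3 to 105.9 CPM in room air, a difference of -0.07 (interval -0.35 to 0.21). In the RTN it had 60.2 to 90.5 CPM after CO2 and 67.1 to 89.3 CPM in room air, a difference of -0.04 (interval -0.26 to 0.17). The 4 groups of the VRC and RTN had medians of 74.9 to 80.2 CPM, so the NTS median lay below them after CO2 and above them in room air. The call in the NTS ended without CO2 library 2, 3, 4, 5 or 6 or room-air library 2, 4 or 5, with adjusted p between 0.0510 (room-air library 5) and 0.225 (CO2 library 6). DHX30 had 116.9 to 143.7 CPM in the NTS after CO2 and 159.0 to 205.9 CPM in room air (difference -0.55), with differences of -0.11 in the VRC and 0.11 in the RTN. TRAPPC12 differed by -0.67 in the NTS, -0.03 in the VRC and 0.00 in the RTN. Of those listed as higher, GJA3, a connexin, differed by 1.01 in the NTS, -0.08 in the VRC and 0.06 in the RTN. ARHGAP33 differed by 0.73, -0.05 and 0.08, and RAB11FIP4, an effector of recycling endosomes, by 0.63, -0.03 and 0.02. SAP30, at 0.98, 0.21 and 0.20, and FSD2 were positive at every site.

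Whether the CO2 effect differed between sites was tested directly over the 36 libraries. By edgeR 0 of 16050 genes passed (0%; lowest adjusted p = 0.412), with 761 at an unadjusted p under 0.05 (4.74%). This fit had no goat term and took the 3 libraries of a goat as independent, which they were not. With the goat as a block, which removes what the 3 libraries of a goat share, 10 genes passed. In that edgeR fit 1937 of 16050 genes had an unadjusted p under 0.05. Those with a symbol were MAN2B1 and TRAPPC12 (adjusted p = 0.0143 each), DHX30 and MSI2 (adjusted p = 0.0196 each) and BAX (adjusted p = 0.0484). In this fit the NTS effect minus the RTN effect was -0.76 for MAN2B1, -0.66 for TRAPPC12, -0.64 for DHX30, 0.74 for MSI2 and 0.63 for BAX. For the VRC minus the RTN the values were -0.03, -0.03, -0.22, -0.19 and -0.39 in the same order. MSI2, an RNA-binding protein of the Musashi family, had 50.2 to 77.0 CPM in the NTS after CO2 and 31.5 to 55.0 CPM in room air, and in the VRC 46.5 to 61.4 CPM after CO2 and 52.2 to 82.2 CPM in room air. All 5 are in the authors' NTS table, which was selected on the NTS part of this contrast. DESeq2's likelihood ratio test called 4 genes.

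**Figure D4:**
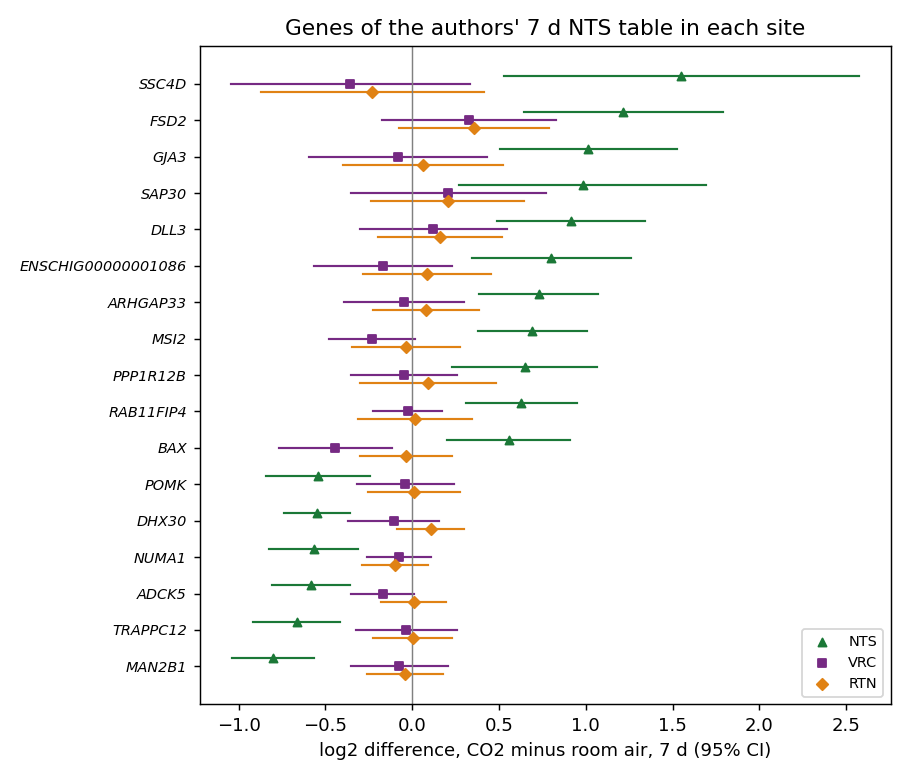
Log2 differences with 95% confidence intervals in the NTS, VRC and RTN for the genes of the authors' NTS table at 7 d that were tested in all 3 sites. The NTS values lie away from 0, by which the genes were chosen, while VRC and RTN intervals mostly span it; for MAN2B1 the 3 values are -0.80, -0.07 and -0.04, and for BAX 0.56, -0.44 and -0.04.

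A set of 9 genes of vessels and oxygen sensing, chosen with earlier results known, was followed to 7 d, pooled over sites in the same way. The early goats are different animals, and batch and time cannot be told apart; the 3 h and 24 h values share their room-air goats. VEGFA, the main growth factor of vessels, ranged from 4.67 to 5.31 mean log2 CPM in CO2 goats at 7 d (median 5.00) and from 5.03 to 5.43 in room-air goats (median 5.16). The difference was -0.72 at 3 h, -0.61 at 24 h and -0.19 at 7 d (interval -0.41 to 0.03). Of the 3 values only that at 3 h passed (limma, adjusted p = 0.0464, 0.665 and 0.999). The pooled fit called 4 of 16339 genes at 3 h (0.0245%) and 0 at 24 h (0%; 941 genes, 5.76%, at an unadjusted p under 0.05).

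THBD, the endothelial thrombomodulin, differed by 1.83, 0.64 and -0.15 at 3 h, 24 h and 7 d, and HYAL2 by 0.74, 0.13 and -0.20. Both passed at 3 h only (limma, adjusted p = 0.0464 each). At 7 d THBD ranged from 1.68 to 2.66 mean log2 CPM in CO2 goats and from 1.72 to 2.62 in room-air goats. TUBB6, a tubulin, differed by 1.04, 0.36 and -0.14, NOS3, the endothelial nitric oxide synthase, by 0.77, 0.22 and -0.30, and ACVRL1, a receptor for bone morphogenetic proteins on endothelium, by 0.69, 0.24 and -0.20. All 5 genes had positive values at 3 h and 24 h and negative values at 7 d. All 5 are on the authors' list of genes higher in the NTS at 3 h. That list was chosen on libraries that enter the 3 h values, so their sign and calls at 3 h were favoured by the choice. VEGFB, a relative of VEGFA, differed by -0.16, -0.11 and 0.32, EGLN1, an oxygen-dependent hydroxylase that targets hypoxia-inducible factors for degradation, by -0.10, -0.12 and 0.36, and VEGFC, of lymph vessels, by 0.76, -0.18 and 0.16. None of the 7 d values passed. VEGFA, VEGFB and EGLN1 are also on the authors' list of genes lower in the VRC at 24 h, which is followed as a set below. At 3 h VEGFA is listed as lower in the NTS and VRC, VEGFB as lower in the VRC and VEGFC as higher in the NTS. The same limit holds for their 3 h values.

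**Figure D5:**
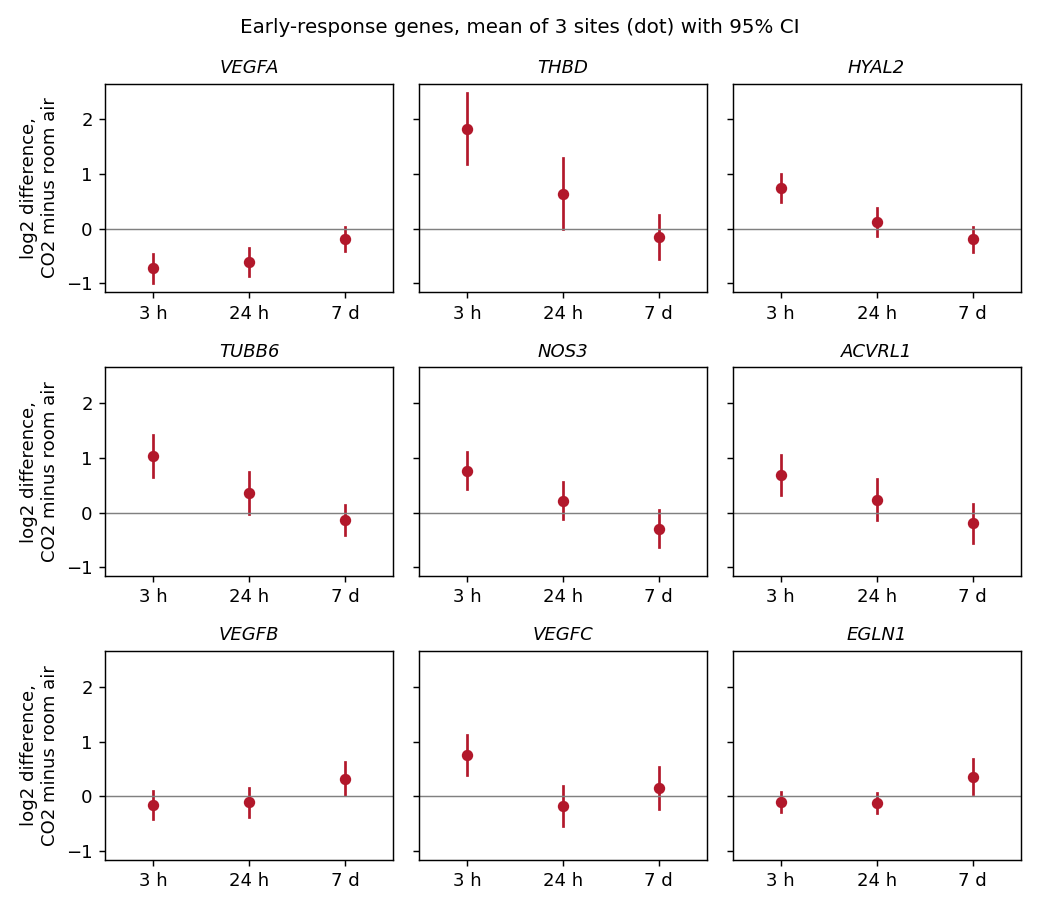
Pooled log2 difference, CO2 minus room air, with 95% confidence interval at 3 h, 24 h (first batch) and 7 d (second batch) for 9 genes. VEGFA stands at -0.72, -0.61 and -0.19, and THBD at 1.83, 0.64 and -0.15; the 7 d intervals of VEGFB and EGLN1 lie just above 0.

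The 7 d effect minus the 24 h effect was tested on 24 goats, and 0 of 16494 genes passed (0%; limma, lowest adjusted p = 0.991), with 726 at an unadjusted p under 0.05 (4.4%; 427 or 2.59% higher at 7 d and 299 or 1.81% lower). Among genes with a symbol the lowest p belonged to TNFAIP1 (-0.45), ARSG (0.61), EFCAB14 (-0.59), RAB12 (0.66) and AGAP3 (0.39). CHST15 (-0.76), NUMA1 (-0.30) and CD1D (-0.91) were lower at 7 d than at 24 h, and MAP1LC3A (0.39) and BTBD6 (0.49) higher, none past the threshold. ARSG, RAB12, AGAP3 and BTBD6 are on the authors' list of genes lower in the VRC at 24 h, and MAP1LC3A is listed as lower in the NTS then. TNFAIP1 and EFCAB14 are listed as higher in the NTS at 24 h, and CHST15 and CD1D as higher in the VRC. NUMA1 is listed as lower in the NTS at 7 d. All these lists were chosen on libraries of this contrast, which favoured the signs seen here. CD1D, which presents lipid antigens, differed by 0.81 at 24 h and by -0.10 at 7 d. Across 15986 genes the pooled differences at 7 d had a Pearson correlation of -0.008 with those at 24 h and of -0.043 with those at 3 h; no goats are shared, and genes are not independent replicates.

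The authors' tables at 24 h were chosen on other goats and give lists to follow at 7 d. Of 95 genes listed as lower in the VRC at 24 h, 94 were tested in the pooled comparison. At 7 d 86 of them had a positive difference (median 0.238, against 0.00415 over all genes). Of the 94, 0 passed and 21 had an unadjusted p under 0.05 (limma), against 3.55% of all genes. The share was 87 of 94 in the NTS (median 0.376), 64 of 93 in the VRC (median 0.0981) and 82 of 94 in the RTN (median 0.174). The medians over all genes at these sites were -0.0129, 0.00261 and -0.00361. By edgeR 24, 2 and 3 of the listed genes had an unadjusted p under 0.05, where the shares of all genes were 8.02%, 6.56% and 3.26%. Levels of the listed genes varied together by goat. Their median distance from the mean of all goats was -0.158 to 0.317 in CO2 goats and -0.365 to 0.132 in room-air goats. CO2 goats 1, 4, 5 and 6 were above every room-air goat and CO2 goats 2 and 3 within their range. As 1 set of covarying genes in overlapping groups, the 86 of 94 do not count as 86 separate results. HS6ST1, RHOU, EIF3B, ZDHHC2, ARSG, NR1D2, LRP8, EGLN1, VEGFA and VEGFB, described above, belong to this set.

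OLIG1 and OLIG2, transcription factors of oligodendrocytes, are themselves on the list of genes lower in the VRC at 24 h, so their values are part of the counts just given. OLIG1 ranged from 4.82 to 5.87 mean log2 CPM in CO2 goats (median 5.41) and from 4.04 to 5.53 in room-air goats (median 5.16), where goats 1 and 4 had 4.25 and 4.04. The differences of 0.46 for OLIG1 and 0.38 for OLIG2 did not pass (limma, adjusted p = 0.999 each), and the part of oligodendrocyte content in the values of this list was not tested. For 152 genes listed as lower in the NTS at 24 h, the differences at 7 d went opposite ways by site: 129 of 147 were positive in the NTS (median 0.144), 56 of 149 in the VRC (median -0.0375) and 9 of 151 in the RTN (median -0.24), with 63 of 152 in the pooled value (median -0.0123). None of these genes passed at any site. An unadjusted p under 0.05 (edgeR) was reached by 12 of 147 in the NTS, against 8.02% of all genes. In the VRC it was 3 of 149 against 6.56%, and in the RTN 4 of 151 against 3.26%. Pooled over sites, the median distance of the 152 genes from the mean of all goats was -0.0843 to 0.169 in CO2 goats. In room-air goats it was -0.275 to 0.219. The genes of 1 list are not independent, so these signs are not separate results.

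The gene lists gave 0 members past 0.05 in the pooled comparison, the VRC or the RTN. The lists of immediate early genes, glucocorticoid-responsive genes and genes of acid-base handling and CO2 sensing had 0 linked members and were not tested. All 5 linked growth signalling genes were positive (median 0.249, against 0.00415 over all genes). All 5 are among the 94 genes listed as lower in the VRC at 24 h, of which 86 were positive, and are no separate result. The highest were NRG2, a neuregulin (0.44, interval 0.07 to 0.80), and the kinase AKT1 (0.37, interval 0.05 to 0.69). Of 10 vessel genes 7 were negative (median -0.146). Of 4 p53 targets 3 were positive (median 0.178), with PHLDA3 at 0.40 and PPM1D at 0.31. PHLDA3 and PPM1D are also among the genes listed as lower in the VRC at 24 h. The 7 cytosolic ribosomal protein genes lay between -0.0773 and 0.00152 and the 6 nuclear genes of oxidative phosphorylation between -0.0122 and 0.0558. Here the pooled value joined unlike sites: RPLP2 differed by 0.15 in the NTS, -0.19 in the VRC and -0.40 in the RTN, and COX5B by 0.17, 0.10 and -0.17. All these ribosomal and oxidative phosphorylation genes are among those listed as lower in the NTS at 24 h. The signs of that list at 7 d went opposite ways by site, as given above, so these genes are no separate result. The 4 genes of the transcription machinery ran from -0.0717 to 0.27. TRIM28 was the highest and is also listed as lower in the VRC at 24 h. POLR2I, POLR2L and GTF2H5 are listed as lower in the NTS at 24 h. NPFF, of 3 neuropeptide and transmission genes, differed by 0.27, and all 3 are on that NTS list.

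Few markers of other cell types were linked, and none passed. Of 14 microglial and myeloid genes 5 were linked, with a median of 0.0272 and a range of -0.101 to 0.105. Of the blood cell markers, HEMGN differed by 0.42 (interval 0.04 to 0.80) and HBQ1 by -0.07. TTR, the transthyretin of choroid plexus, was the 1 linked ependymal marker of 7 and ranged from -0.63 to 3.16 mean log2 CPM in CO2 goats (median 1.52) and from -0.82 to 1.30 in room-air goats (median 0.46). Its highest value was in the NTS of CO2 goat 3, with 22.6 CPM. The difference of 0.93 spanned 0 (interval -0.23 to 2.10).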

How the data were processed

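Bulk RNA libraries were made with SMART-Seq v4 and Nextera XT kits, per the labels. The submitters' processing notes name edgeR 4.6, featureCounts 2.0.6, STAR 2.7.10b and fastp 0.24.0. In the sources used here a genome build is not given. The raw counts that the authors deposited cover 25144 Ensembl genes, and 0 columns were left out. Their deposited gene tables hold log2 fold changes and mean abundances, a likelihood ratio score, and p-values with their adjusted form, per the file headers; no listed absolute log2 change was under 0.501. Their entries were linked to identifiers by the mean abundance of a likelihood ratio fit over 90 libraries: each of 342 entries matched 1 gene within 1e-09, and all 93 entries given as identifiers matched themselves.

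Counts were scaled by TMM and filtered with filterByExpr, and log2 CPM (prior count 2) was averaged over the 3 sites of each goat. Goat means were tested with limma 3.58.1 (trend, robust), and counts per site and the site-by-CO2 term with edgeR 4.0.16 (quasi-likelihood, robust) in R 4.3.3, adjusted by Benjamini-Hochberg and read at 0.05. DESeq2 1.42.0, voom, other filters and scalings, blocks and fits without each goat were alternatives. The numbers mark the same goat across sites by the labels of the design. Residuals of 1 goat correlated at 0.0541 to 0.559 (median 0.36, 36 pairs), against a median of -0.0795 for other goats of the same exposure. Residuals were centred within each site and exposure, which pulls values between different goats below 0. The functions were tested on simulated counts. The rule named the 10 genes of lowest p with a symbol and at least 1 CPM per direction, 2 identifiers per direction, 5 per direction in the VRC, the RTN and the 7 d minus 24 h test, 5 in the site test, the authors' 7 d NTS genes, 9 early genes and up to 6 members of each list. Members and lists were chosen with earlier results of these data known. Errors come from the spread between goats, and intervals were wider with genes under 1 CPM included.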

Additional observations from a re-analysis of the deposited data

Results flagged for a closer look

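In 7 of 196 groups of 6 goats 1 goat stood apart from the other 5 in its mean log2 CPM by Dixon's criterion; chance alone flags about 5% of groups. MAN2B1 was 6.53 in CO2 goat 1 (other CO2 goats 6.05 to 6.15). Without that goat the pooled difference was -0.37 in place of -0.30, and neither passed. DHX30 was 7.17 in room-air goat 5 (others 7.34 to 7.44). OVN was 3.05 in room-air goat 6 (others -1.40 to -0.00), and the excess was present in all 3 punches of that goat. ARHGAP33 was 3.01 in room-air goat 3 (others 2.79 to 2.84), the goat farthest out on the first component. The locus chi-mir-29b was -1.15 in CO2 goat 2 (others -0.84 to -0.73), just above the highest room-air goat at -1.16. COX6B1, a subunit of cytochrome c oxidase, was 8.07 in CO2 goat 1 (others 8.29 to 8.41). POLR2I, a subunit of RNA polymerase II, was 5.87 in CO2 goat 3 (others 5.51 to 5.64).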

How the results depend on the processing

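The pooled count stayed at 0 with another prior count, filter, scaling, goat weights, the median over sites, leaving out any 1 site, all 30 goats in the fit, summed counts in edgeR and in all 12 fits that left out a goat. It was 10 by DESeq2 (5 higher, 5 lower) and 9 by voom with the goat as a random effect (5 higher, 4 lower). Unadjusted p under 0.05 ran from 435 genes without CO2 goat 5 to 754 without room-air goat 3, and was 908 with goat weights. The NTS count of 1 was 75 by DESeq2, 2 by voom with weights, 34 by the likelihood ratio test over 90 libraries and 0 to 3 without 1 library (3 without room-air library 3; 0 without CO2 library 2, 4, 5 or 6 or room-air library 4 or 5). The VRC and RTN counts of 0 were 2 each by DESeq2 and 0 in every fit without a library. For the site test 0 became 4 by DESeq2 and 10 with goats as blocks, and the 7 d minus 24 h test gave 0 in all settings run. The cause of these moves was not tested.

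Replicate numbers were not taken to pair goats of different exposures. Residuals of equal numbers correlated at 0.00487, -0.0332, 0.216, 0.160, -0.0106 and 0.0908. Unequal numbers were not correlated as a reference, so these values cannot show whether a pairing exists. With the number as a replicate block 0 genes passed in the pooled test, the NTS, VRC and RTN; the NTS call of MAN2B1 then had an adjusted p of 0.133 (edgeR).

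Of 1390 gene values under another setting 31 changed sign, all of genes not past the threshold. Without the NTS these pooled values were BAX -0.23, MSI2 -0.13, POMK 0.0027, PPP1R12B -0.0040, SSC4D -0.25, ENSCHIG00000001086 -0.0073, ACVRL1 0.032, MAP1LC3A -0.013, COX5B -0.0038, NDUFA2 -0.053 and POLR2I -0.027. Without the VRC, PRPH was -0.40, and without the RTN, RPLP2 was 0.032, RPL38 0.054 and HBQ1 0.073. With the median of sites RPLP2 was 0.081, RPL38 0.036, PRPH -0.036 and HBQ1 0.0046. NPFF was -0.18 by edgeR and -0.19 by DESeq2 on sums, and PRPH -0.086 by voom and -0.030 with goat weights. In the RTN, TRAPPC12 was -0.0029 with RLE factors, -6.7e-05 unfiltered, -0.0024 by DESeq2, -0.0064 by voom and -0.0016 with the number as a block. ADCK5 was -0.0094, MAN2B1 0.0092 and MSI2 0.052 there by voom. Without 1 goat, pooled BAX ran from -0.017 to 0.12, NDUFA2 from -0.017 to 0.090, PRPH from -0.34 to 0.39, RPL38 from -0.15 to 0.026 and RPLP2 from -0.20 to 0.0010. RTN values ran from -0.031 to 0.043 for ADCK5, -0.10 to 0.041 for BAX, -0.090 to 0.018 for MAN2B1, -0.11 to 0.070 for MSI2 and -0.053 to 0.043 for TRAPPC12, and VRC values from -0.18 to 0.015 for MAN2B1 and -0.10 to 0.031 for TRAPPC12.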

Other observations

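Of 9 genes that the authors' tables list as higher in the NTS at 3 h, 8 were tested in the pooled comparison, 1 positive and 7 negative (median -0.174), and of 8 listed as higher in the VRC, 5 were tested, 1 positive and 4 negative (median -0.152). The 2 listed as lower in the NTS at 3 h were both negative (median -0.182), the 4 listed as lower in the VRC were 2 positive and 2 negative, and the 2 listed as higher in the RTN were 1 positive and 1 negative. In the RTN alone the first list had 5 positive of 7 (median 0.103). These lists hold several of the vessel genes described above. Genes listed as higher in the NTS at 24 h had a median of -0.09 in the NTS (8 of 22 positive) and of 0.173 in the RTN (21 of 22 positive) at 7 d. In each of these 2 sites 3 of 22 had an unadjusted p under 0.05 (edgeR), against 8.02% and 3.26% of all genes. The genes of 1 list are not independent.

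EFCAB12, listed by the authors as higher in the NTS at 7 d, was at 0 in 5 of the 6 room-air libraries of the NTS and at 0.0654 CPM in the other, and at 0 to 0.473 CPM after CO2. In the RTN EFCAB12 had 0 to 0.464 CPM after CO2 and 0.0947 to 0.536 CPM in room air. CPA3 and ENSCHIG00000013914 of the same table were too low to be tested in the pooled comparison.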
